A study of Mus musculus with 12 samples.

Results

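The wild-type injured sites are 2481 stretches of open chromatin that were listed in mouse dorsal root ganglia after injury of the sciatic nerve, in wild-type animals, and in none of the other 3 groups of the experiment. They were defined by the deposited lists of peak summits, the points of highest signal within each accessible region. Summits of all 4 lists were pooled and neighbours within 200 bp were chained, which gave 78381 loci from 155267 summits. A locus was a member if its summits came from the wild-type injured list alone, its highest score was at least 5 and no summit of another list lay within 1 kb. The score and the absence from the other lists thus chose the members, and both are given as a description with no test.

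The experiment held 12 ATAC-seq libraries, 3 in each of 4 groups: Silc1+/+ (wild-type) and Silc1-/- mice, each after a sham operation or a crush of the sciatic nerve at mid-thigh. Each extraction used 6 fresh ganglia of lumbar levels L4 to L6, so all cell types of the ganglion were measured together. C57black6 Ola HSD males are the only purchased mice the labels name, and the labels do not state the animals' age, the time from crush to dissection, the steps of the sham operation or the nature of the Silc1 allele. For each group 1 list of summits was analysed, so no spread between libraries could be computed, no difference between groups was tested, and read depth is unknown. Shares are given with 95% Wilson intervals, which cover counting error only.

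In ATAC-seq a transposase cuts and tags DNA that is not packed into nucleosomes, so that active promoters and enhancers of the cells in a tissue give peaks. Sensory neurons have their cell bodies in dorsal root ganglia, where they are wrapped by satellite glia, together with Schwann cells, fibroblasts, blood vessels, resident macrophages and the blood cells within the vessels, and crushing the sciatic nerve cuts the axons of many of these neurons. Each blood lineage opens its own enhancers and a small set of promoters with few CpG dinucleotides. In myeloid cells (neutrophils, monocytes and macrophages) many of these carry the purine-rich site of PU.1, an ETS-family transcription factor, and sites of C/EBP factors. AP-1, the dimer of Fos and Jun proteins, acts in injured neurons and in activated leukocytes alike, and GC boxes, bound by Sp and Klf factors, are common in promoters of genes used by every cell.

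Members at gene starts can be set beside their sequence, and 4 of the 8 highest-scoring are printed here as RefSeq promoter windows (GRCm38.p6, the same build as mm10), from 250 bases before to 50 after the start, 5′ to 3′ along the gene. Hcls1, Lcn2 and Tagap were taken as genes of blood cells and Tbc1d2b as a CpG-rich contrast. Capitals mark the C/EBP motif TTGCNNAA, the AP-1 motif TGANTCA, the PU.1 core GAGGAAGT and the GC box GGGCGG, each on either strand. A match describes the letters and is no evidence of binding.
Hcls1, chr16:36934733-36935032, plus strand: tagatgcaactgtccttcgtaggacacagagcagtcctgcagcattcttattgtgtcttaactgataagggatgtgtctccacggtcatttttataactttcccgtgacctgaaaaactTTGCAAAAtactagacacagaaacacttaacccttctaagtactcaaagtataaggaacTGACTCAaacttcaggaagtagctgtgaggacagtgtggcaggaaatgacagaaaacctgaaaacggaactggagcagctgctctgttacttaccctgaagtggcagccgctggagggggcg
Lcn2, chr2:32387690-32387989, minus strand: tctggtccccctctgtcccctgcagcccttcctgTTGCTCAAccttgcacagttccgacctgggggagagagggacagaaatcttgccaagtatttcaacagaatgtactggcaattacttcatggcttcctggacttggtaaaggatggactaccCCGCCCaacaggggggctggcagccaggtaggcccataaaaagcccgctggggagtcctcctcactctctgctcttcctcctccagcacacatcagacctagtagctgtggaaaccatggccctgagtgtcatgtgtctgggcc
Tagap, chr17:7925750-7926049, plus strand: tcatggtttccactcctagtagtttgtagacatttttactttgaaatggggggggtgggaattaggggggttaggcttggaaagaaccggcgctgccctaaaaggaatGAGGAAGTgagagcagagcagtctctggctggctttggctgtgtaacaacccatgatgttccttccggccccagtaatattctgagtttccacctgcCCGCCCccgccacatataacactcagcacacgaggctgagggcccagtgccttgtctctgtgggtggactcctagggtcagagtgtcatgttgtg
Tbc1d2b, chr9:90270720-90271019, minus strand: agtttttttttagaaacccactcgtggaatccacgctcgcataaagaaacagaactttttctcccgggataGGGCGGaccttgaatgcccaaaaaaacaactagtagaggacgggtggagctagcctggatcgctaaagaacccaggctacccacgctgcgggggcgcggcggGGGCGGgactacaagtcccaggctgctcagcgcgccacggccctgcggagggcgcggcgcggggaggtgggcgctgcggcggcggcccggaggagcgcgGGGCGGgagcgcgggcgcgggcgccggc

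Hcls1 encodes a cortactin-like actin regulator of blood cells. Its member had a score of 20.8 at position 36934942 of chromosome 16, 41 bases before the start, and the nearest summit of any other list lay 59.8 kb away. A C/EBP motif began 131 bases and an AP-1 motif 72 bases before the start, and the window held 6 CpG. Lcn2 encodes lipocalin 2, an iron-siderophore binding protein stored in neutrophil granules and induced in many injured tissues. Its member had a score of 11.7 and lay 40 bases before the start, at position 32387779 of chromosome 2, in a window with 3 CpG. Tagap, a GTPase-activating gene of lymphocytes and myeloid cells, had a score of 11.6, a summit 82 bases before the start and a PU.1 core 142 bases before it. Tbc1d2b, a Rab GTPase-activating gene, had a score of 12.9, 35 CpG and 3 GC boxes, and here a summit of another list lay 1363 bp away.

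The other 4 of the 8 windows belonged to Gm38525 (score 13.4, 0 CpG), 2610318N02Rik (11.7, 12 CpG), Rab20 (11.7, 16 CpG) and Syngr1 (11.6, 38 CpG). Rab20 encodes a small GTPase of endosomes and phagosomes and Syngr1 a synaptic vesicle protein, so the highest-scoring promoters were not all of blood cell genes. Trem1, a receptor of neutrophils and monocytes, tied with Tagap at 11.6. Further down the order stood Cytip (10.6), a cytohesin partner of leukocytes, Metrn (10.6), a secreted factor of glia and neural progenitors, Dok3 (10.3), an adaptor of immune receptors, Myo1f (9.68), a myosin of leukocytes, and Pglyrp1 (9.19), a neutrophil granule protein that binds peptidoglycan. These 6 were picked for their function after their values were seen.

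**Figure D1:**
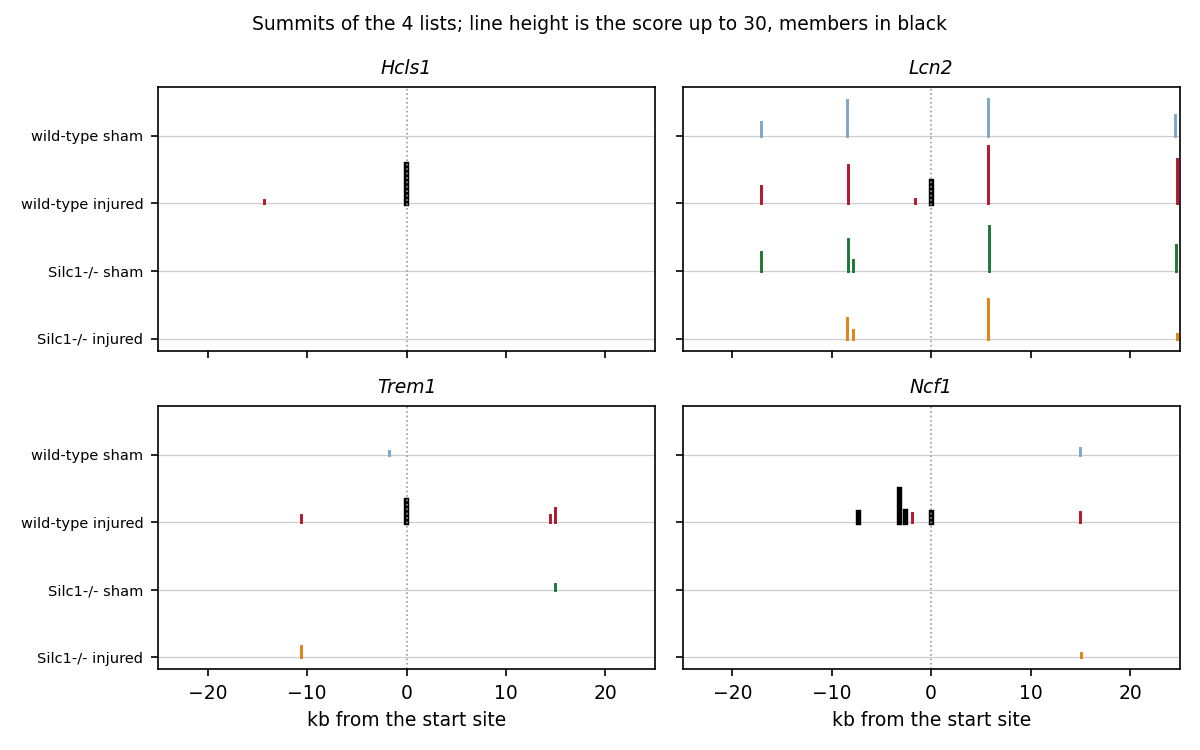
Summits of the 4 lists within 25 kb of the start sites of Hcls1, Lcn2, Trem1 and Ncf1, by distance in kb along the gene, with line height proportional to the −log10 score up to 30 and members in black. At Hcls1 only the wild-type injured list had summits in the window, while Lcn2 had summits in all lists at 5.74 to 5.78 kb beyond the start and a member 0.04 kb before it.

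The map shows members among other summits at 4 gene starts. All 4 are starts of blood cell genes picked by hand, so they do not stand for members in general. At Lcn2 the site about 5.7 kb beyond the start scored 66.0 in the wild-type injured list, 19.4 in its sham counterpart, and 23.6 (sham) and 20.7 (injured) in Silc1-/-, so the neighbourhood was listed in every group and the promoter in 1. Ncf1, which encodes the p47phox subunit of the phagocyte NADPH oxidase, had 4 members within 50 kb. They scored 17.3, 5.76, 5.47 and 5.31, and the one of 5.47 lay 28 bases after the start. The 17.3 member lay 3207 bp before the start, at position 134232832 of chromosome 5, and 18.2 kb from the nearest summit of another list. How reads that match several places were treated is not given in the sources used here, so sites in gene families with close copies (Bcl2a1b, Pira1, Clec4b2, Lilrb4a and the globin genes) are uncertain.

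In all, 119 members (4.80%, 4.02 to 5.71) fell in a promoter window of the RefSeq table. They covered 130 windows of 121 genes, of which 97 were protein-coding and 24 long noncoding RNA genes. The windows held a median of 7 CpG (quartiles 4 to 18), against 24 (18 to 31) in the 6940 windows at wild-type injured loci present in all 4 lists and 7 (3 to 20) in all 32851 windows of the table. Median GC content was 54.8% at the members, 63.3% at the loci of all lists and 52.7% in the table. The member promoters thus had the CpG number of the average promoter in the table, and fewer CpG than those open in every group.

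Of 15 motifs searched, the PU.1 core was present in 12 of the 130 member windows (9.23%, 5.36 to 15.4), in 2.88% (2.51 to 3.30) of those of all 4 lists and in 3.20% of all windows. The Silc1-/- sham sites, chosen by the same rule, had it in 1 of 42 windows (2.38%, 0.422 to 12.3). AP-1 was present in 11.5% (7.12 to 18.2) of member windows, 3.73% of those of all lists and 7.81% of the table. C/EBP motifs were in 13.1% (8.33 to 19.9), 7.09% and 10.8%, and GC boxes in 47.7% (39.3 to 56.2), 75% and 35.7%. The Silc1-/- sham windows had AP-1 in 0 of 42 (0%, up to 8.38) and GC boxes in 40.5% (27.0 to 55.5). C/EBP was in 14.3% (6.72 to 27.8) of them, so its share was no higher in the members than in this class. Windows were counted singly, with intervals to match, even where several overlapped at the same summit. At Gm4631 such windows each held a C/EBP motif and a CCAAT box, so the member shares of both motifs count that site more than once. The ETS motif CCGGAAG, typical of promoters used in every cell, was in 10.0% (5.94 to 16.4) of member windows and 24.2% of those of all lists. The STAT motif TTCNNNGAA was in 9.23% against 8.30% of the table, and the CRE, TGACGTCA, in 0 of 130 (0%, up to 2.87) against 1.79%. Other motifs of blood lineages did not stand above the table: RUNX (TGTGGTT) was in 3.08% against 5.27% and the motif AGATAA of GATA factors in 10.0% against 11.2%. The TATA box (TATAAA) was in 4.62% against 13.6%, the SOX motif ACAAAG in 13.8% against 18.7%, the E-box CAGCTG in 12.3% against 16.3% and the NRF1 motif GCATGCGC in 0.769% against 2.71%. The CCAAT box was in 35.4% against 37.4% and the CTCF core AGGGGGC in 16.2% against 10.6%. None of these differences was tested.

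The 12 windows with a PU.1 core are those of Tagap, Mirt1, Aim2, Dennd1c, Fhl3, Bcl2a1b, Nlrp1a, Dgkz, Cd5, Mmp8, Pira1 and Cyth4. The cores lay 8 to 251 bp from the summit, farthest at Mmp8, with a median of 38.5 bp, and 8 of 12 within 50 bp. The sites of 6 of these genes are printed with 10 bases on each side, on the strand that holds the core, to show how far the letters beyond the core vary.
Mirt1, chr19:53464886-53464913, minus strand: cctctagtaaGAGGAAGTggggtgctca
Aim2, chr1:173420481-173420508, plus strand: aaccttattgGAGGAAGTgggtcactga
Bcl2a1b, chr9:89199115-89199142, plus strand: agaagaggaaGAGGAAGTggtgtgttgc
Cd5, chr19:10739010-10739037, minus strand: gtttcacaggGAGGAAGTtgacagttca
Mmp8, chr9:7558198-7558225, minus strand: tgtgtgtaatGAGGAAGTtgtgctagtt
Cyth4, chr15:78597063-78597090, minus strand: gaccctgtggGAGGAAGTcagccctggc

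Aim2 encodes the DNA sensor of an inflammasome, Bcl2a1b an anti-apoptotic protein of leukocytes, Cd5 a surface receptor of T cells and some B cells, Mmp8 the collagenase of neutrophils and Cyth4 a cytohesin of blood cells. Their members scored 7.44, 5.92, 5.19, 5.19 and 5.02, near the lower limit of 5, and Mirt1 scored 11. At Fhl3, a LIM protein of muscle and other tissues, the core was also present (score 7.16), in a window with 29 CpG. Mirt1 is a long noncoding RNA gene, and the others named here are protein-coding.

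Members were mostly weak entries of their list. The list held 43841 summits and 24672 loci of score 5 or more, of which the members made up 10.1% (9.69 to 10.4). Their median score was 6.32, with quartiles of 5.45 and 7.83, against a median of 11 for all loci of score 5 or more. Only 245 reached 10 and 21 reached 20. The share of loci that were members fell from 26.0% at scores of 5 to 6 to 18.7%, 11.8% and 5.44% at 6 to 8, 8 to 10 and 10 to 15, and to 0.439% at 15 and over. Over the same bins the share present in all 4 lists went from 16% to 85.7%.

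**Figure D2:**
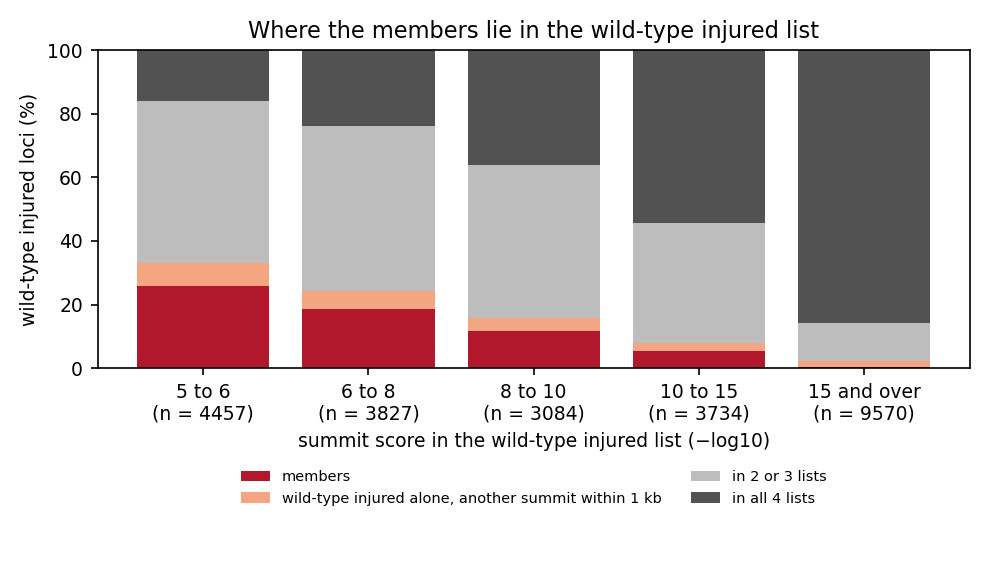
Wild-type injured loci of score 5 or more (y axis, percent of the n given under each bar) by score on the −log10 scale (x axis), split into members, loci of that list alone that another summit within 1 kb kept out, loci in 2 or 3 lists and loci in all 4. Members fell from 26.0% in the lowest bin to 0.439% in the highest.

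Scores also repeated. Of the 2481 members, 1288 (51.9%) had one of 6 values, 5.19 (432 members), 5.92 (329), 6.67 (198), 7.44 (152), 8.23 (106) and 9.05 (71), against 10.3% of the loci of all 4 lists. The 6 values were chosen as the most frequent among the members and are low, so this difference was favoured in advance. Of the 24672 wild-type injured loci of score 5 or more, 6033 held one of them, and 21.3% of these were members. A score of 5.19, as at Mmp8, Cd5 and Hbb-bt, is therefore a common low value and ranks nothing among the members that hold it. Just inside the limit stood sites at Eno2 (5.00) and Sbno2 (5.01), and just outside sites at Trim56 and Mmp25 (4.99 and 5.00, both under 5 before rounding). For the distance, sites at Slc30a1 and Chd7 were 1005 and 1009 bp from another list's summit, and sites at Ache and Igsf6 were left out at 987 and 993 bp. A further 930 loci of the list alone were left out by this distance.

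The same rule gave 177 sites for wild-type sham (1.11%, 0.962 to 1.29, of its loci of score 5 or more), 2098 for Silc1-/- sham (9.33%, 8.96 to 9.72) and 588 for Silc1-/- injured (3.35%, 3.09 to 3.63). The lists held 27279, 48332 and 35815 summits in that order, so the 2 longest lists had the most sites of their own. With the 27279 highest-scoring summits of each list the members numbered 3434. With absence judged against wild-type sham alone, a choice made after seeing the data, they numbered 6275.

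Members lay within genes more than at their starts. Inside a gene were 61.4% (59.5 to 63.3), and 33.6% (31.8 to 35.5) were over 1 kb from any gene. The share inside a gene was similar elsewhere, at 60.5% of Silc1-/- sham, 55.4% of wild-type sham and 55.1% of Silc1-/- injured sites. For wild-type injured loci in all 4 lists it was 55.0%. Within 1 kb of a start site were 214, or 8.63% (7.58 to 9.80), against 53.7% (52.8 to 54.5) of the loci in all 4 lists. Among sites of 1 list alone the share at start sites was 9.04% (5.64 to 14.2) in wild-type sham, 4.86% (4.02 to 5.87) in Silc1-/- sham and 2.72% (1.68 to 4.37) in Silc1-/- injured. The share of the members was above those of both Silc1-/- classes and near that of wild-type sham. With 1 list per group the intervals cannot rank the groups, and these differences were not tested. Members outside genes lay a median of 8.57 kb from the nearest gene, against 20.9 (wild-type sham), 16.9 (Silc1-/- sham) and 26.8 kb (Silc1-/- injured).

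**Figure D3:**
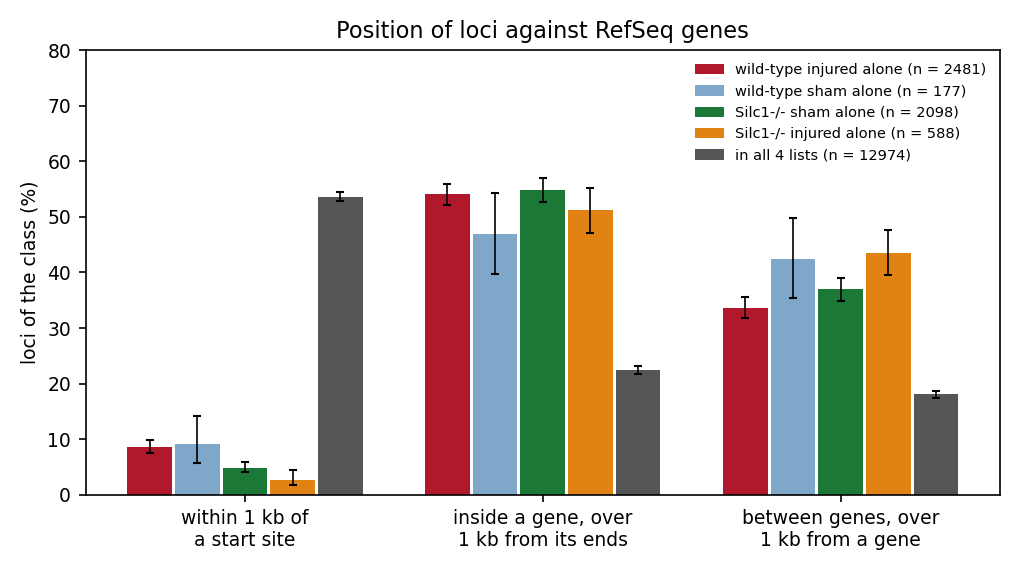
Share of loci (y axis, percent, with 95% Wilson intervals as bars) within 1 kb of a start site, inside a gene and over 1 kb from its ends, or over 1 kb from any gene, for sites of each list alone and for wild-type injured loci in all 4 lists. Start sites held 8.63% of the members and 53.7% of the loci in all 4 lists.

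Few members stood in regions empty of other summits. A summit of another list lay within 10 kb of 51.6% (49.7 to 53.6) and within 100 kb of all but 38 members. By the same rule, the share within 10 kb was 63.3% for wild-type sham, 37.3% for Silc1-/- sham and 40.1% for Silc1-/- injured sites. The share for positions placed at random was not computed, so closeness to other summits cannot be read as a property of the members. Taken list by list, 41.8% of members had a Silc1-/- sham summit within 10 kb, 31.7% a Silc1-/- injured and 31.1% a wild-type sham summit. These 3 shares followed the order of the lists' lengths. Members also lay near each other: 29.2% (27.5 to 31.0) had another member within 50 kb, against 11.9% (10.6 to 13.4) in the Silc1-/- sham class of similar size. The smaller Silc1-/- injured and wild-type sham classes had 3.57% and 9.60%, and such shares rise with the number of sites.

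**Figure D4:**
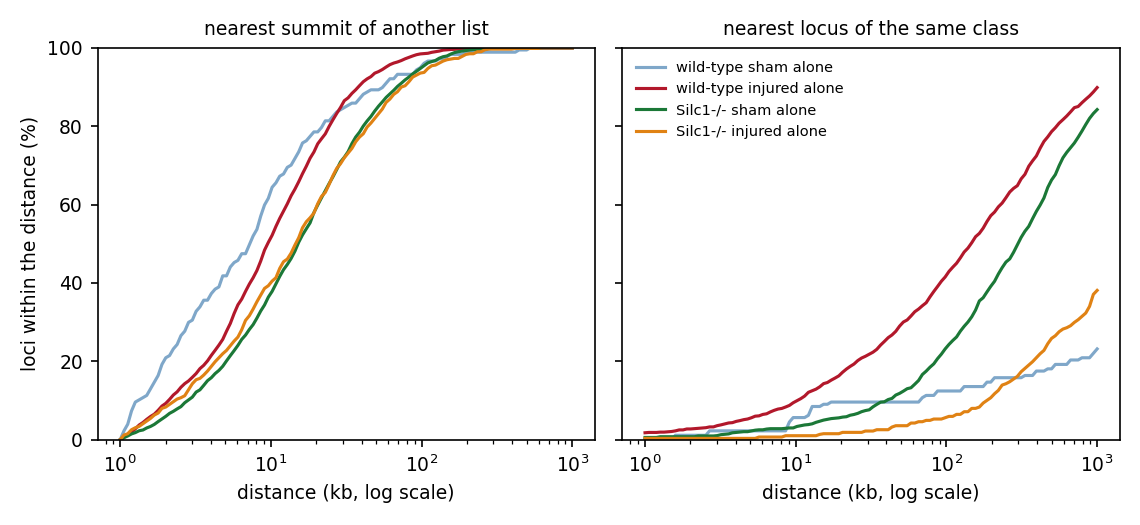
Cumulative share of sites of each list alone (y axis, percent) with a summit of another list (left) or another site of the same class (right) within the distance on the x axis (kb, log scale). Members lay within 10 kb of another list's summit in 51.6% of cases and within 50 kb of another member in 29.2%.

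Of the highest-scoring members on the autosomes and X, the top 3 lay between genes, nearest to the long noncoding RNA genes Gm46074 (score 140.2, chromosome 8, position 20698094), Gm39767 (116.2, chromosome 2, position 22003714) and Gm41989 (97.5, chromosome 3, position 6305785). Each had a summit of another list of similar height close by, scoring 187.0 at 5461 bp, 108.0 at 1012 bp and 110.2 at 1022 bp. Akap6, an anchoring protein of the nuclear envelope in neurons and muscle, held a member of 58.4 within its body, with a summit of 73.2 in another list 1460 bp away. Of the 20 highest on the autosomes and X, Hcls1 among them, 14 lay within 10 kb of another list's summit, 8 within 2 kb, and 13 outside genes. Left out of these 20 by their chromosome were a member on Y inside Gm33272 (61.0, with another list's summit 1091 bp away) and one of 33.1 on an unplaced sequence.

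Among members with no other list's summit within 10 kb, those of highest score lay near Gm19600 (56.4), Apba2 (46.0, 17729 bp from this gene of an adaptor of neuronal vesicle traffic), Vmp1 (24.2, inside this autophagy gene), Bex6 (22.9) and Hcls1 (20.8). After them came 1700016G22Rik (20.1), Ncf1 (17.3), Tk2 (17.2, inside this mitochondrial thymidine kinase gene), Gm34043 (17.1) and St8sia4 (16.2, 58749 bp from this polysialyltransferase gene). At Apba2, Vmp1, Bex6, Tk2 and St8sia4 another list's summit stood only just beyond that distance, 10254 to 11101 bp away. The Gm34043 site, inside a long noncoding RNA gene, was 73.3 kb from one.

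Members near a gene end included Lilrb4a (16.2), an inhibitory receptor of myeloid cells, whose member lay inside the gene 18 bp from its end. Ptpre, a receptor-type tyrosine phosphatase also made in leukocytes, had members of 15.9 and 12.9 inside the gene, the second 420 bp from a gene end. Naa60 (21.7), 9530057J20Rik (14.8) and Tctex1d4 (13.3) had members 456, 519 and 561 bp from an end. Of 17492 protein-coding genes with a start site in the table, 148 (0.846%) had a member within 1 kb of it.

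For whole genes, 4223 of 21887 protein-coding genes (19.3%) had a member in the body or within 50 kb of an end. By the same rule 13% had a Silc1-/- sham site, 3.79% a Silc1-/- injured site and 1.43% a wild-type sham site. Of the 4223, 832 had 2 or more members and 173 had 3 or more. Long genes have more room for a site, and a member may count for several neighbouring genes.

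Sgms1, Clec4b2 and Fyb had the most, with 6 members each, followed by Ptpre and Sytl3 among the genes with 5. Clec4b2, in a cluster of C-type lectin receptor genes of myeloid cells on chromosome 6, had all of its 6 summits within 50 kb in the wild-type injured list and 0 in the other 3. They scored 10.7, 10.7, 8.23, 8.23, 6.67 and 5.19, and one of 10.7 lay inside the neighbouring Clec4a2, 587 bp from its start. Fyb, the adaptor ADAP of T cells and myeloid cells, had 5 wild-type sham, 18 wild-type injured, 7 Silc1-/- sham and 8 Silc1-/- injured summits. Its top member scored 9.88, and one of 6.67 lay 30 bases before a start within the gene. Sgms1, a sphingomyelin synthase gene of 267.2 kb, had 7, 19, 10 and 7 summits in the same order.

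The listed marker genes are described in order of cell type, as counts beside the 19.3% of all protein-coding genes. Neutrophil markers had a member within 50 kb at 6 of 10 genes (interval 31.3% to 83.2%), against 0 of 10 Silc1-/- sham sites, which allows up to 30.0%, 1 Silc1-/- injured and 0 wild-type sham sites. Retnlg, a resistin-like protein secreted by neutrophils, had 2 members, the higher at 13.4 and 7401 bp from the gene. Csf3r, the receptor of granulocyte colony-stimulating factor, had 1 at 10.4, 20425 bp from the gene and 1568 bp from another list's summit. Cxcr2, the receptor that guides neutrophils to chemokines, had 2, the higher at 8.81 in the promoter of the adjacent Rufy4, 28623 bp from Cxcr2. Elane, Camp and Ngp, genes of granule proteins, had 1 each with scores of 5.16, 5.92 and 5.18, and S100a8, S100a9, Ly6g and Mpo had none.

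Within 50 kb of the 10 neutrophil genes, summed gene by gene, the wild-type injured list gave a count of 74 summits. The counts were 32 for wild-type sham, 50 for Silc1-/- sham and 34 for Silc1-/- injured. A summit near several listed genes, such as the neighbours S100a8 and S100a9, counts for each. Of the 36 wild-type injured loci of score 5 or more there, 8 were members (22.2%, 11.7 to 38.1), against 9.98% near all protein-coding genes. The count of 6 genes fell to 2 with a score of at least 10, where 2.41% of all genes had a member, and to 2 with no other list's summit within 10 kb, where 8.19% did. In whole ganglia, more cells of a type and more open chromatin per cell cannot be told apart, and the number of blood cells left in the tissue was not measured.

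Macrophage markers had a member at 5 of 17 genes (29.4%, 13.3 to 53.1) and a Silc1-/- sham site also at 5. Cd163, a scavenger receptor for haemoglobin, had one at 11.6, 31211 bp from the gene, and Fcgr3, an Fc receptor, one at 6.67. Csf1r, the receptor for the growth factor of macrophages, had one at 6.27 inside the gene, which also lies within 50 kb of Pdgfrb. Itgam (5.92) and Trem2 (2 members, the higher at 5.92) were the others, and Cx3cr1, Adgre1 and Spi1, the gene of PU.1, had none. Of the loci of score 5 or more near macrophage markers, 10.9% (5.10 to 21.8) were members, close to the share near all genes.

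T and B cell markers had a member at 5 of 13 genes, of which Cd3g, Cd3d and Cd3e, the adjacent genes of the T cell receptor's CD3 chains, shared a site of 9.81, and a Silc1-/- sham site at 3. Of the loci near them 4 of 39 were members (10.3%, 4.06 to 23.6), against 9.98% near all genes. Cd4 had one at 8.56 and Ptprc, which encodes the leukocyte antigen CD45, one at 8.23 inside the gene. Endothelial and mural markers had one at 6 of 14 genes (42.9%, 21.4 to 67.4), against 4 for Silc1-/- sham sites. The highest was at Acta2, smooth muscle actin (12.5, inside the gene and 6588 bp from its start), followed by Pecam1 (6.67) and Flt1, a receptor for vascular endothelial growth factor (6.42). Here 7 of 25 loci of score 5 or more were members (28%, 14.3 to 47.6).

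Sensory neuron markers had a member at 2 of 23 genes (8.70%, 2.42 to 26.8) and a Silc1-/- sham site at 8. The 2 were Pvalb (10.1), where the site lay 39954 bp away and inside Ncf4, another oxidase subunit gene, and Runx1 (8.11), a factor of pain-sensing neurons and of blood cells, where it lay inside the gene. Channels and receptors of sensory neurons had a member at 3 of 23 genes and a Silc1-/- sham site at 6: P2rx3, an ATP receptor (3 members, the highest at 14.3 and 40036 bp away), Oprm1, the mu opioid receptor (11.6), and Piezo2, the touch channel (2 members, the higher at 5.19). Near the neuron markers 2 of 45 loci of score 5 or more were members (4.44%, 1.23 to 14.8), and near the channels and receptors 6 of 52 (11.5%, 5.40 to 23.0). The neuron markers were not without summits: counts summed gene by gene were 64 (wild-type sham), 95 (wild-type injured), 149 (Silc1-/- sham) and 81 (Silc1-/- injured). Summits near neighbouring genes such as Nefl and Nefm count for each.

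Satellite glia and Schwann cell markers had a member at 3 of 18 genes and a Silc1-/- sham site also at 3: Prx, a myelin protein of Schwann cells (8.47), Fabp7, a fatty acid binding protein of satellite glia (7.44), and Kcnj10, their inward potassium channel, where a site of 6.67 lay 61 bases before the start. Fibroblast markers had 1 of 10 (Thy1, 7.22) and skeletal muscle markers 2 of 11 (Acta1, 7.44, and Myog, 5.33), with Silc1-/- sham sites at 2 genes of each list. Vomeronasal receptor genes, which serve pheromone sensing in the nose and were listed as a reference, had 0 of 16, which allows up to 18.8%.

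**Figure D5:**
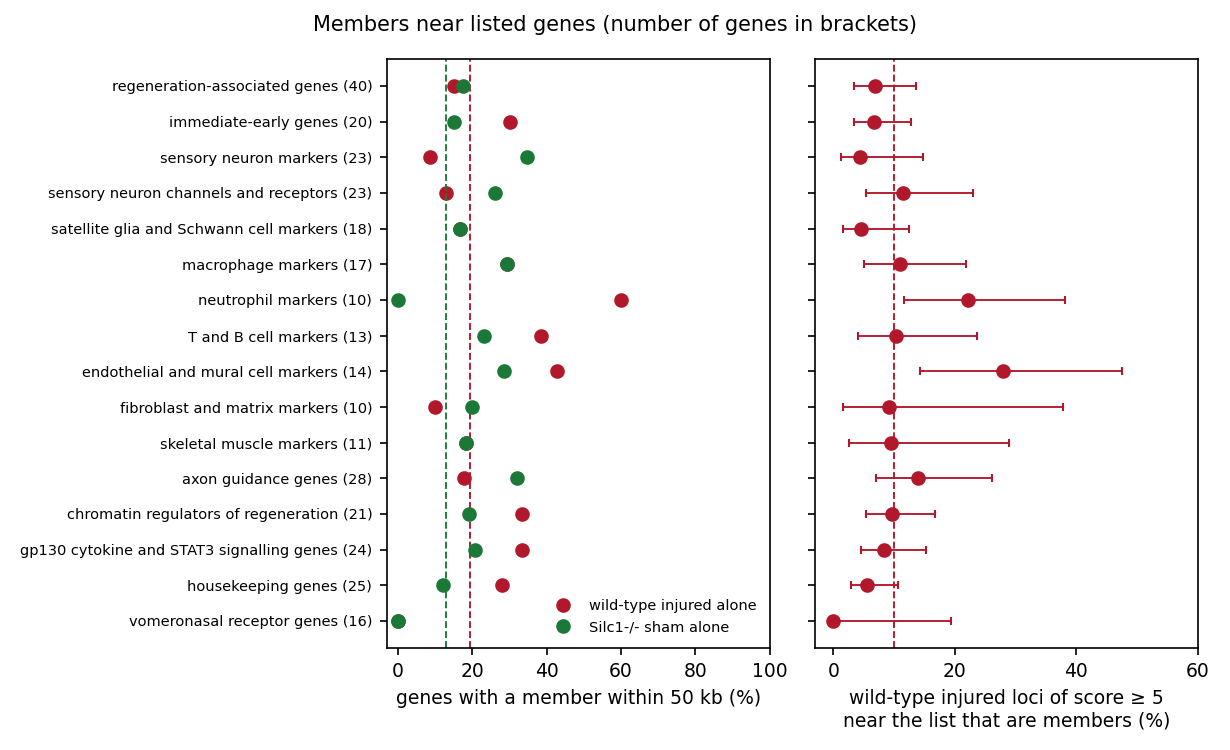
Left, percent of genes of each fixed list (number of genes in brackets) with a member or with a Silc1-/- sham site within 50 kb, with dashed lines at 19.3% and 13% for all protein-coding genes. Right, percent of wild-type injured loci of score 5 or more near each list that were members, with 95% Wilson intervals and a dashed line at 9.98% for all genes: neutrophil (22.2%) and endothelial and mural markers (28%) stood highest.

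Genes of the nerve's response to injury had members at shares of 15% to 33.3% in 3 lists, beside the 19.3% of all protein-coding genes. Regeneration-associated genes had a member at 6 of 40 (15%, 7.06 to 29.1): Klf6, a zinc-finger factor of axon growth, with the intergenic site of 20.1 that lies nearest to 1700016G22Rik, Klf7 (7.16), a related factor, Lif (6.14), a cytokine released after injury, and Nts, Stmn4 and Jun at 5.19. The Klf6, Nts and Jun sites lay 15656, 46422 and 40660 bp from the genes. The Lif site lay 19890 bp from Lif, inside Osm of the gp130 list, and the Klf7 and Stmn4 sites lay inside their genes. Atf3 and Sox11, which are also induced by axon injury, had none, and the member nearest to Sox11 lay 848.0 kb away. Immediate-early genes had one at 6 of 20, led by Fosl2, an AP-1 subunit (9.88), Junb, another (8.23), and Fosb (6.93). These sites lay 13947, 39440 and 32732 bp from the genes in that order, and the one near Junb lay in the promoter of Mast1. The genes of gp130 cytokine signalling and STAT3, a route by which Lif and interleukin 6 act on injured neurons, had one at 8 of 24, among them Socs1, a feedback inhibitor (10.5), and Jak1, a receptor kinase (9.88). Silc1-/- sham sites lay near 7, 3 and 5 genes of these 3 lists. Of the loci near them, 6.93%, 6.78% and 8.41% were members.

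Axon guidance genes had a member at 5 of 28 and a Silc1-/- sham site at 9, with Unc5c, a netrin receptor (9.88), Plxna2, a semaphorin receptor (8.13), and Nrp2, its co-receptor family (7.81), at the top. Chromatin regulators had one at 7 of 21, led by Hdac3, a histone deacetylase (9.05), Ctcf, the insulator factor (7.44), and Rest, a repressor of neuronal genes (6.67). Silc1-/- sham sites lay near 4 chromatin regulators and 3 housekeeping genes. Housekeeping genes had a member at 7 of 25 (28%, 14.3 to 47.6), led by Pgk1 (8.23), Eef2 (6.86) and Gpi1 (6.67). As the housekeeping genes show, a listed gene may count through a distant site. Of the loci near the guidance, chromatin and housekeeping lists, 14.0%, 9.62% and 5.59% were members. The gene table has no Silc1, which was taken from general knowledge to be Gm9866 on chromosome 12. No list had a summit within 1 kb of it, so the genotypes could not be checked here, and the nearest member lay 654.6 kb away.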

How the data were processed

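ATAC-seq was measured in 12 libraries, 3 per group, grouped by the labelled genotype and treatment. The deposited files used were 4 summit lists, 1 per group; Bowtie2, MACS2 and mm10 were used per the submitters' processing notes, with no version, and read filters, pooling of libraries and any transposase shift are not stated. Column 5 of each deposited list is the authors' −log10 score, and whether it comes from p-values or q-values is not stated. Read depth is unknown.

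Positions are 1-based. Genes and promoter windows came from RefSeq tables of GRCm38.p6. Start sites came from the promoter table, which gives the strand. The gene table does not, so either gene end was used there, and exon or intron status was not used here. All listed symbols but Trac and, among the erythroid genes added later, 1 more matched. Members and lists were chosen with earlier results of these data known. Named were the 20 highest-scoring members on the autosomes or X, the 10 highest with no other list's summit within 10 kb, the 10 highest within 1 kb of a gene end, up to 3 genes per fixed list and the 5 genes with most members; other promoters and genes were named after their values were seen.

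Steps were tested on simulated data. Python 3.11.15, numpy 2.4.6, pandas 2.3.3, scipy 1.17.1 and matplotlib 3.10.9 were used. Alternatives were other joining distances, score limits, distances to other lists and genes, equal list lengths and autosomes alone.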

Additional observations from a re-analysis of the deposited data

How the results depend on the processing

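Each list used belongs to a whole group of libraries, so leaving out replicates was not run. No paired analysis was possible because the lists carry no replicate numbers. Depth could not be set against any value.

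With a score of at least 3 the members numbered 6109, which was 17.2% of the loci of that score, and 49.1% had another list's summit within 10 kb, 45.0% another member within 50 kb and 36.5% of genes a member. With a score of at least 10 these values were 245, 1.84%, 55.1%, 9.39% and 2.41%, with 64.5% of members inside genes and 2 neutrophil markers with a member. With other lists' summits kept out only to 200 bp, 13.8% of loci were members, 16.8% of members lay at a gene end, 64.8% near another list's summit and 31.5% near another member, and 25.3% of genes had one. With summits kept out to 10 kb the members numbered 1200, or 4.86% of loci, with 10.9% at a gene end and 19.7% near another member, 8.19% of genes and 2 neutrophil markers. With equal list lengths the shares were 13.9% of loci, 14.0% at a gene end, 41.8% near another list's summit, 33.9% near another member and 25.1% of genes. Gene ends within 500 and 2500 bp held 8.50% and 23.5%, and 9.79% of members had another within 10 kb. Genes with a member within 10 kb, within 100 kb and in the gene body were 8.75%, 29.4% and 5.28%. Judged against wild-type sham alone, a setting chosen after seeing the data, the members numbered 6275. Why the shares moved was not tested. The share of member promoters with a PU.1 core ranged from 7.54% to 15.4% over 8 settings, the highest being 2 of 13 windows at a score of at least 10. This recomputation and that of the marker lists were added after seeing the data.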

Other observations

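Further blood-cell genes were collected into 5 lists after the values had been seen, partly from the members themselves, so their counts describe these sites and support nothing. Of all protein-coding genes 19.3% had a member and 13% a Silc1-/- sham site within 50 kb. Neutrophil granule proteins had a member within 50 kb at 10 of 14 genes and a Silc1-/- sham site at 0. Besides Lcn2 and Pglyrp1 these included Padi4, the enzyme that citrullinates histones in neutrophils (12.9, inside the gene and 2902 bp from its start), Mmp8 (2 members, the higher at 8.03), Cd177 (6.67, at the promoter of the adjacent Ceacam10) and Mmp9 (2 members, the higher at 5.51). Elane and Prtn3 shared 1 site of 5.16. Phagocyte NADPH oxidase genes had a member at 5 of 6, a Silc1-/- sham site at 0 and a Silc1-/- injured site at 1. Those with a member include Ncf1 (17.3), Ncf4 (10.1), Rac2 (5 members, the highest at 8.62 inside the adjacent Cyth4) and Cyba (6.29). Within 50 kb of these 6 genes the wild-type injured list held 45 summits, against 20 for wild-type sham, 18 for Silc1-/- sham and 19 for Silc1-/- injured. The lists differ in length, and near the housekeeping genes the counts were 200, 136, 180 and 141 in the same order. Leukocyte adhesion and signalling genes had a member at 10 of 16, a Silc1-/- sham site at 4 and a wild-type sham site at 1. Members lay at Cytip (4 members, the highest at 15.8 inside the gene) and Itgb2, the integrin chain CD18 (3 members, the highest at 14.1), beside Hcls1.

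Erythroid genes had a member at 10 of 15, a Silc1-/- sham site at 0 and a Silc1-/- injured site at 1. Trim10, a gene needed for terminal red cell maturation, had one at 9.61 in its promoter, 178 bases before the start. Hba-a1 and Hba-a2, the alpha-globin genes, shared one at 8.75, which lay 32675 bp from Hba-a1. Erfe, the hormone erythroferrone, had 3, the highest at 8.14. Hbb-bt, a beta-globin gene, had one at 5.19, 88 bases before the start, and Epb42 one at 5.92, 53 bases from its start. Inflammasome genes had a member at 7 of 9 and a site of each other list at 1. Those with a member include Casp1 (7.44, 141 bp from its start), Nlrp3 (2 members, one of 6.59 lying 4 bases after the start) and Nlrp1a (2 members). The adjacent Nlrp1b counts the same 2 members as Nlrp1a. The higher, at 8.23, lay inside Nlrp1b, 19354 bp from Nlrp1a and 87158 bp from any other list's summit. On chromosome X, 31 of 733 loci of score 5 or more were members (4.23%, 3.00 to 5.94), against 8.01% to 12.2% on the autosomes.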
